A study of Mus musculus with 12 samples.

Results

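The mitochondrially encoded genes are the 37 genes whose symbol begins with mt-, out of 55903 genes in a table of TPM values from mouse liver (a read measure scaled by gene length and library total). They comprise 13 protein-coding genes, 22 tRNA genes and 2 rRNA genes, and all 37 lie on the circular mitochondrial chromosome. The table holds 12 RNA-seq libraries of total RNA from liver tissue, 4 in each of 3 groups. The young control group carries the description control. Another group is titled aged control, has the condition aged and carries the description doxo, a term the labels do not spell out, and it is called aged/doxo here. The last group, KSL0608-Se-treated, carries the description doxo-KSL0608-Se, so the doxo part of the name is shared by the aged/doxo and treated groups and absent from the young control group. KSL0608-Se is a code-named agent of a study on light-activated removal of senescent cells. The sources used here do not give strain, age in weeks, sex, dose or schedule. The labels do not say how animals map to libraries, so every p-value below measures the spread between these libraries.

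Mitochondria keep a small genome of their own, which encodes core membrane subunits of the respiratory chain and the RNAs needed to translate them. Long transcripts from each strand are cut apart, mostly at the tRNAs that punctuate the genome, and most mRNAs then receive short poly(A) tails. Complexes I, III and IV pump protons across the inner membrane and complex V, the ATP synthase, uses that gradient to make ATP. All other subunits of these complexes come from nuclear genes. Hepatocytes are rich in mitochondria, and their mitochondrial transcripts make up a large part of liver RNA.

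The mouse mitochondrial genes are packed closely, and 28 of the 37 are annotated on the plus strand and 9 on the minus strand. The minus-strand genes are mt-Nd6 and 8 tRNA genes. Of 9 pairs of members that overlap in the annotation, 4 join 2 protein-coding genes. The longest overlap, 43 bases on the same strand, lies between mt-Atp8 and mt-Atp6. It is shown here because reads inside it fit both genes, and also a chromosome 1 copy of mt-Atp6 described below. Capitals mark the shared bases (GRCm38, GENCODE M21, mt-Atp8 at chrM:7766-7969 on the plus strand, the beginning of mt-Atp6 at chrM:7927-8046).
mt-Atp8: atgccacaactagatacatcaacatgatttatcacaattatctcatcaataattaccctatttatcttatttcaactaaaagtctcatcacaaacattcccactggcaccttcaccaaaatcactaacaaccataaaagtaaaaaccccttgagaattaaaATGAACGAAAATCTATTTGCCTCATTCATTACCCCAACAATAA
mt-Atp6: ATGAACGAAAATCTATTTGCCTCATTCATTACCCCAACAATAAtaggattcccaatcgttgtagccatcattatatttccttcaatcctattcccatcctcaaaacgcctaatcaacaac
mt-Nd4l and mt-Nd4 share 7 bases on the plus strand, mt-Atp6 and mt-Co3 share 1, and mt-Nd5 and mt-Nd6 share 14 bases on opposite strands. Strand bias of base composition is visible in the opening bases of mt-Nd5 (plus strand, chrM:11742-11801) and mt-Nd6 (minus strand, chrM:14011-14070), printed 5′ to 3′ with G in capitals.
mt-Nd5: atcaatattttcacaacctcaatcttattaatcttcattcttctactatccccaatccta
mt-Nd6: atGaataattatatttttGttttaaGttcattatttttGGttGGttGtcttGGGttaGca
The mt-Nd5 stretch holds no G. G makes up 28.1% of the whole mt-Nd6 gene and between 5.88% and 16.1% of the 12 plus-strand protein-coding genes. Of the 13 protein-coding genes, 9 begin with ATG, while mt-Nd1 begins with GTG, mt-Nd2 with ATA, mt-Nd3 with ATT and mt-Nd5 with ATC. In mt-Co3, mt-Nd4 and mt-Cytb the annotated gene ends with a lone T in place of a complete stop codon, which the poly(A) tail completes.

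A block of chromosome 1 carries annotated unprocessed pseudogenes that copy 7 of the 13 protein-coding genes, and their TPM bears on every value below. All 7 lie on the minus strand of chromosome 1 of GRCm38 in GENCODE M21. Gm28439 (chr1:24611535-24612410) copies mt-Nd4, Gm10222 (chr1:24612407-24612700) copies mt-Nd4l, Gm28438 (chr1:24612775-24613119) copies mt-Nd3 and Gm28437 (chr1:24613189-24613971) copies mt-Co3. Gm10925 (chr1:24613974-24614651) copies mt-Atp6, Gm28661 (chr1:24614885-24615565) copies mt-Co2 and Gm29216 (chr1:24615706-24616197) copies part of mt-Co1. Other nuclear genes also share stretches with mitochondrial genes, but they are not counted as copies below. Among them, Gm13340 on chromosome 2 shares stretches with mt-Co1 and averaged 58.9 TPM over all libraries. Gm13341, Gm13339 and Gm4076, which share stretches with mt-Co2, mt-Nd2 and mt-Nd5, averaged 0.754, 0.373 and 0.036 TPM. Over their whole length, Gm28439, Gm10222, Gm28437, Gm10925 and Gm28661 differ from the mitochondrial gene at 0 bases. The opening 60 bases of mt-Co2 (chrM:7013-7072, plus strand) and of Gm28661 (chr1:24615506-24615565, minus strand) show a pair that no read inside the gene can separate.
mt-Co2: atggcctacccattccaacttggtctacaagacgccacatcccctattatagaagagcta
Gm28661: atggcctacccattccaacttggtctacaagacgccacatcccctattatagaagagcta
Gm28438 differs from mt-Nd3 at 1 base, T3C, where the base of the mitochondrial gene comes before the position counted from the gene's 5′ end and the base of the copy comes after it. The windows cover chrM:9459-9491 (plus strand) and chr1:24613087-24613119 (minus strand), with the differing base in capitals.
mt-Nd3: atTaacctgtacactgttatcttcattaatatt
Gm28438: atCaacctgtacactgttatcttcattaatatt
Placed without gaps over its whole length, Gm29216 aligns to bases 1054 to 1545 of mt-Co1, 31.8% of that gene. Its 6 differences T1056A, C1057T, A1059G, A1060G, C1062A and A1066T all fall between bases 3 and 13 of the copy. Such a placement cannot tell substitutions from unrelated sequence at the edge of the copy, and which of these holds was not tested. The windows cover chrM:6381-6413 (plus strand) and chr1:24616165-24616197 (minus strand), with the differing bases in capitals.
mt-Co1: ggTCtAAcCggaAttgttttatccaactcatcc
Gm29216: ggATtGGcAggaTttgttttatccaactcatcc

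Of the 37 members, 15 passed the filter of a mean of at least 1 TPM over the 12 libraries, namely all 13 mRNAs and both rRNAs. The 22 tRNA genes, 59 to 75 bases long, were listed at 0 in all 12 libraries. Genes of this length were rarely listed above 0 in these files. Of 1032 genes of at most 75 bases, 3 (0.291%) were above 0 in any library, against 25019 of 55903 genes (44.8%) of every length. The shortest and the longest mitochondrial tRNA gene, picked by their length, show the size of the class (mt-Ts2, chrM:11613-11671, and mt-Tl1, chrM:2676-2750, both on the plus strand).
mt-Ts2: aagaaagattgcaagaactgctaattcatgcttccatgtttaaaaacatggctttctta
mt-Tl1: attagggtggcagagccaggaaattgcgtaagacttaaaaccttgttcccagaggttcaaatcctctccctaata
A value of 0 for a gene of this size is a statement about the listing and not about the tRNA pool, and the tRNAs enter no comparison.

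Aged/doxo library 2 stood apart from the other 11 libraries and the comparisons that use it are also given without it. Mitochondrially encoded genes held 27.6% of its TPM, against 9.82%, 11.5% and 11.2% in aged/doxo libraries 1, 3 and 4. Neat1, a nuclear-retained RNA, reached 87.95 TPM there against 10.36 to 34.87 TPM in the rest, and Malat1, another such RNA, reached 21.52 TPM against 2.24 to 11.66 TPM. The summed level of 10 hepatocyte markers (all 10 of them averaging at least 1 TPM) was 48755 TPM in it and 81205 to 97368 TPM in the other aged/doxo libraries, and ran from 62502 to 89229 TPM in the young control libraries. The 8 Kupffer cell markers, all averaging at least 1 TPM, summed to 56.5 TPM in it and to between 70.9 and 374.8 TPM in the other aged/doxo libraries, with 142.0 to 245.2 TPM in young control. The 9 muscle markers, of which 8 average under 1 TPM, summed to 18.6 TPM there and to between 0.94 and 18.0 TPM in the other aged/doxo libraries, and the 6 kidney tubule markers, of which 5 average under 1 TPM, to 7.30 TPM against 0.12 to 1.19 TPM. Young control libraries reached similar or higher sums, 0.50 to 17.8 TPM for muscle and 0.08 to 17.5 TPM for kidney tubule markers. The 7 erythroid markers, of which 5 average at least 1 TPM, summed to 2419 TPM in that library, 1839 to 2568 TPM over the 4 aged/doxo libraries, 836 to 1991 TPM in young control and 846 to 1778 TPM in treated libraries. For the remaining lists, aged/doxo library 2 lay near or within the other aged/doxo libraries. The sums were 37.0 TPM against 33.5 to 78.1 for sinusoidal endothelium and 212 against 114 to 231 for stellate cells. They were 41.0 against 37.9 to 58.4 for cholangiocytes and 2.21 against 2.12 to 5.26 for neutrophils. Lymphocyte markers were lower, at 3.57 against 3.92 to 8.25, and brown adipocyte markers higher, at 7.62 against 4.48 to 7.39. No listed marker was at 0 in all 12 libraries. The part of these differences in the mitochondrial values of that library was not tested. In bulk tissue, fewer cells of a type and less RNA per cell cannot be told apart. The number of genes at 1 TPM or more ran from 9568 in young control library 1 to 11023 in treated library 3, with 9741 in aged/doxo library 2. TPM sums to a fixed total in each library, so read depth is unknown and a high mitochondrial share lowers every other value.

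**Figure D1:**
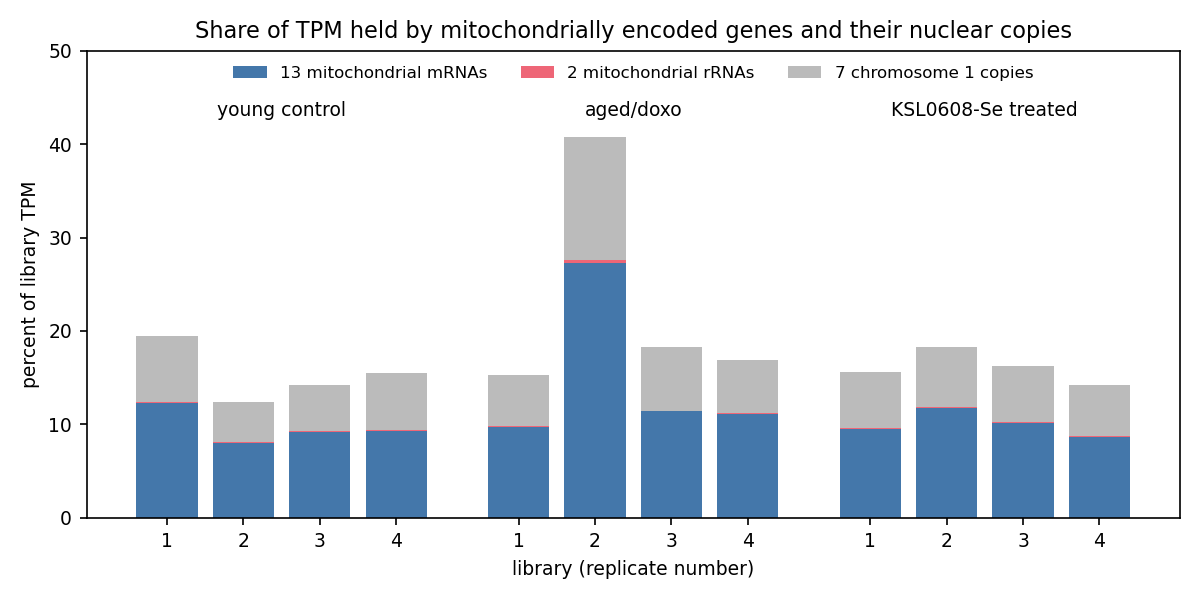
Percent of library TPM (y axis) held by the 13 mitochondrial mRNAs, the 2 rRNAs and the 7 chromosome 1 copies in each of the 12 libraries (x axis, replicate number within each group), as stacked bars. The bars of 11 libraries end between 12.4% and 19.5%, and that of aged/doxo library 2 ends at 40.8%.

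In the young control livers, mitochondrially encoded genes held 9.82% ± 1.84 of TPM (SD, n = 4). The single libraries held 12.4%, 8.10%, 9.32% and 9.42%. In the treated livers the share was 10.1% ± 1.33 (SD, n = 4), from 9.57%, 11.9%, 10.2% and 8.72%. The aged/doxo mean was 15.0% ± 8.40 (SD, n = 4), and 10.8% ± 0.884 (SD, n = 3) without library 2. The ranges of the young control and treated groups overlapped, and the 3 remaining aged/doxo libraries lay inside the young control range. The chromosome 1 copies held a further 5.58% ± 1.24, 7.80% ± 3.65 and 6.01% ± 0.352 of TPM in the young control, aged/doxo and treated groups (SD, n = 4 each), and 5.99% ± 0.704 (SD, n = 3) in aged/doxo without library 2. Copies and mitochondrial genes together held 15.4% ± 3.01 in young control, 22.8% ± 12.04 in aged/doxo and 16.1% ± 1.66 in treated livers (SD, n = 4 each), and 16.8% ± 1.497 (SD, n = 3) in aged/doxo without library 2. Between 32.4% and 39.2% of this sum was assigned to the copies in every library. Set against the remaining genes, mitochondrial genes and copies came to 14.1 to 24.2 TPM per 100 other TPM in young control libraries, 16.6 to 22.3 in treated libraries and 18.0, 68.9, 22.3 and 20.4 in aged/doxo libraries 1 to 4.

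How TPM was divided between a mitochondrial gene and its copy varied by gene and by library. Gm28661 held between 93.5% and 99.4% of the TPM of the mt-Co2 pair, Gm28437 between 87.4% and 95.5% of the mt-Co3 pair and Gm10925 between 87.3% and 94.3% of the mt-Atp6 pair. Thus most of the signal of these 3 subunits was listed under pseudogene names. For mt-Nd4l, the copy's share of the pair was 72.4, 74.2, 68.0 and 69.1% in young control libraries 1 to 4, 76.5, 51.0, 79.1 and 63.8% in aged/doxo libraries 1 to 4 and 76.6, 79.7, 76.7 and 83.8% in treated libraries 1 to 4. The treated libraries all lay above the young control libraries in this share, a pattern noticed in the data and not tested. It was picked out of 6 pairs. By TPM, 3.66% of all genes were higher without overlap in treated than in young control libraries. That percentage is for single genes and not for shares of a pair. For mt-Nd3 the copy held between 18.7% and 53.4% of the pair in 11 libraries and 1.496% in aged/doxo library 2. Gm29216 held 0.0636% of the mt-Co1 pair in aged/doxo library 2, 0.719% in aged/doxo library 4, 8.76% in young control library 1 and from 20.2% to 37.9% in the remaining 9. Gm28439, identical to 63.6% of mt-Nd4, was listed at 0 in all 12 libraries, so the mt-Nd4 value takes the whole pair. Because the division moves between libraries, the pair sum is given beside the single value for the genes concerned. For mt-Co1 the sum overstates the level per length, since Gm29216 covers only a part of that gene.

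**Figure D2:**
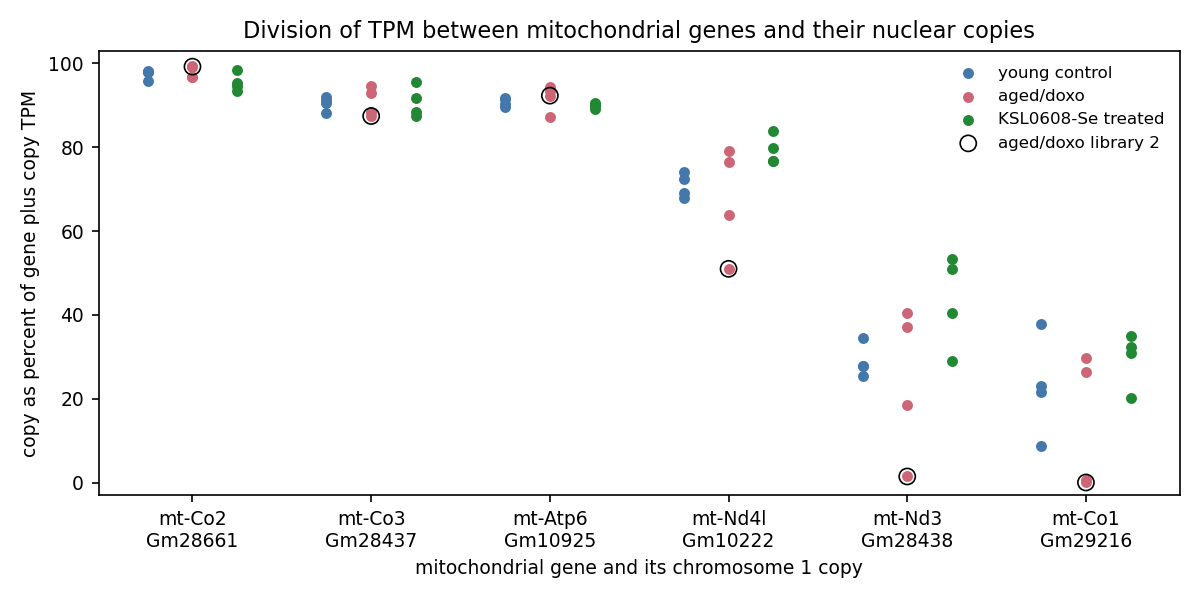
Share of the TPM of each gene-copy pair that was assigned to the chromosome 1 copy (y axis, percent), for 6 pairs (x axis), with a point for each library coloured by group and a ring around aged/doxo library 2. The mt-Co2, mt-Co3 and mt-Atp6 copies sit above 87% throughout, and the mt-Co1 and mt-Nd3 copies drop to near 0 in the ringed library.

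Ordered by mean TPM per gene in young control livers with the copies added, the 13 mRNAs spanned 28770 ± 6182 TPM for mt-Atp8 to 2539 ± 507 TPM for mt-Nd6 (SD, n = 4). TPM is scaled by gene length, but these levels can be set side by side only roughly. mt-Atp8, of 204 bases, was far above mt-Atp6 at 11930.3 TPM, although both come from a shared bicistronic mRNA. The cause of that gap was not tested. For mt-Co1 the sum with a partial copy overstates the level, and mt-Co1 was listed alone at 12847 ± 1832 TPM (SD, n = 4). Below mt-Atp8 came mt-Co2 at 18802 ± 3493 TPM, mt-Co1 at 16764 ± 1919, mt-Co3 at 14084 ± 5144, mt-Atp6 at 11930.3 ± 4541, mt-Nd5 at 10996 ± 933 and mt-Nd4l at 10472 ± 878 (SD, n = 4). They were followed by mt-Cytb at 9309 ± 2114 TPM, mt-Nd3 at 9051 ± 3550.2, mt-Nd4 at 7120.3 ± 1490.3, mt-Nd2 at 6938 ± 1191 and mt-Nd1 at 6152 ± 1319.9 (SD, n = 4). The rRNAs were lowest, mt-Rnr1 at 686 ± 285 TPM and mt-Rnr2 at 372 ± 175 TPM (SD, n = 4). The young control ranges of neighbours in this order overlapped except between mt-Atp8 and mt-Co2, between mt-Nd1 and mt-Nd6 and between mt-Nd6 and mt-Rnr1. mt-Nd1 was above mt-Nd6, mt-Nd6 above mt-Rnr1 and mt-Rnr1 above mt-Rnr2 in all 12 libraries.

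**Figure D3:**
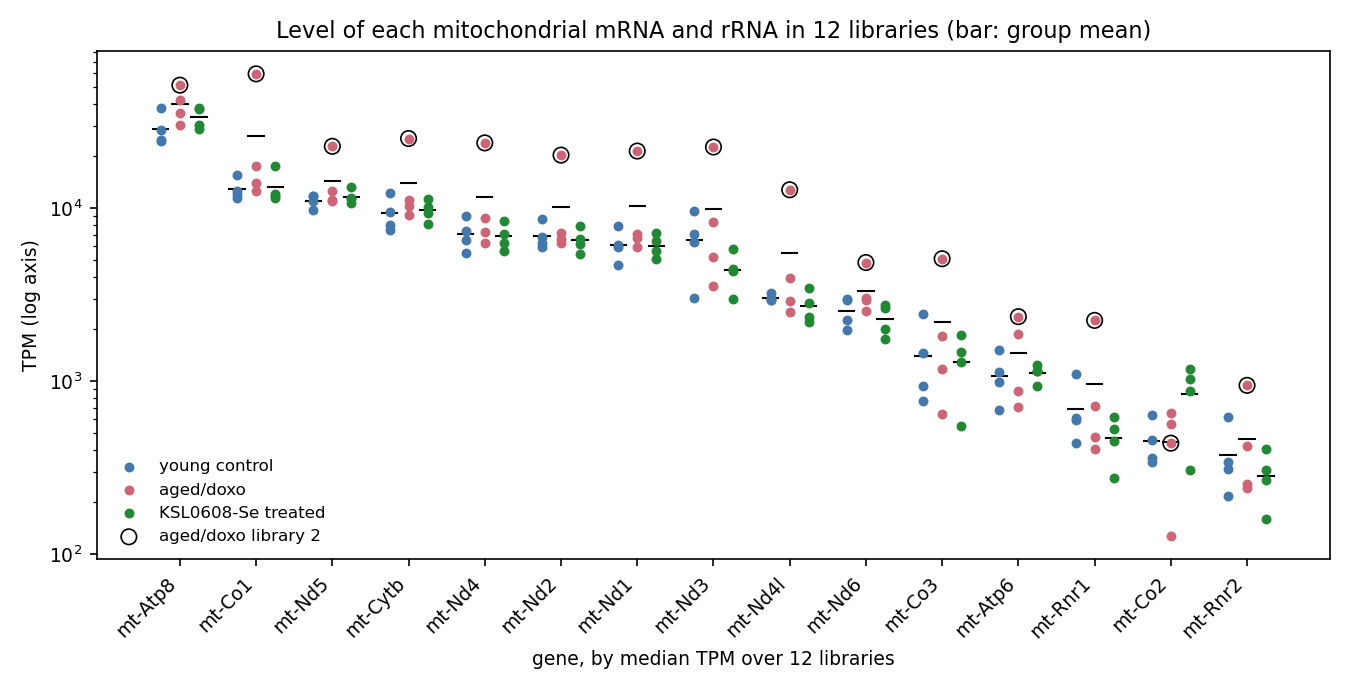
TPM of each of the 13 mRNAs and 2 rRNAs as listed, without copies (y axis, log scale), with a point for each of the 12 libraries coloured by group, black bars for group means and a ring around aged/doxo library 2. mt-Atp8 has the highest median and lies between 24380.2 and 51352 TPM, mt-Co2 and the rRNAs are at the bottom, and the ringed library is the highest of its group for every gene except mt-Co2.

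The complex I subunits, which form the membrane arm that couples electron transfer to proton pumping, were all highest in aged/doxo library 2, and over the other 11 libraries mt-Nd3 varied the most and mt-Nd5 the least. mt-Nd1 lay between 4673 and 7881 TPM (median 6123) in the other 11 libraries and at 21364 TPM in aged/doxo library 2. mt-Nd4 lay between 5502 and 9037 TPM (median 7072) in those 11 libraries and at 23815 TPM in that library. mt-Nd5 was the steadiest member, between 9697 and 13236 TPM (median 11250.1) in the 11 libraries and 22753 TPM in aged/doxo library 2, with a highest value 1.36 times its lowest over the 11. mt-Nd2 was at 8646, 5983, 6290.4 and 6833 TPM in young control libraries 1 to 4, 6287, 20240.0, 6657 and 7182 TPM in aged/doxo libraries 1 to 4 and 6637, 7923, 6164 and 5439 TPM in treated libraries 1 to 4. Groups overlapped, and the 11 other libraries spanned 1.59-fold. mt-Nd3 was at 9567, 3015, 7041 and 6403 TPM in young control libraries 1 to 4, 3522, 22539, 5216 and 8255 TPM in aged/doxo libraries 1 to 4 and 5799.6, 4429, 4323 and 2985 TPM in treated libraries 1 to 4. With Gm28438 added it was at 13271, 4601, 9458 and 8875 TPM in young control libraries 1 to 4, 5917, 22881, 8289 and 10148 TPM in aged/doxo libraries 1 to 4 and 8185, 7439, 8816 and 6403 TPM in treated libraries 1 to 4. The highest libraries of mt-Nd3 were aged/doxo library 2 and young control library 1 on either scale, and the groups overlapped. mt-Nd4l, which shares its end with mt-Nd4, was at 3010.1, 2956, 3219.7 and 2923 TPM in young control libraries 1 to 4, 2899, 12759, 2506 and 3966 TPM in aged/doxo libraries 1 to 4 and 2339, 3447, 2839 and 2184 TPM in treated libraries 1 to 4. With Gm10222 added it was at 10924, 11437, 10056 and 9469.8 TPM in young control libraries 1 to 4, 12348, 26039, 11968 and 10954 TPM in aged/doxo libraries 1 to 4 and 10004, 17013, 12178 and 13490.2 TPM in treated libraries 1 to 4. The pair sum was high in aged/doxo library 2 and in treated library 2, while the single value was high in the former alone. mt-Nd6, the only mRNA from the minus strand, was at 2981, 1963, 2265 and 2948 TPM in young control libraries 1 to 4, 2534, 4844, 2925 and 3036 TPM in aged/doxo libraries 1 to 4 and 2649, 2738, 2013 and 1760.3 TPM in treated libraries 1 to 4. It was highest in aged/doxo library 2 and lowest in treated library 4, and treated libraries 3 and 4 were both lower than the 4 aged/doxo libraries. The sources used here do not give the counting strand, so reads of mt-Nd6 and of the opposite strand that overlaps it may not be separable. The ratio of mt-Nd5 to mt-Nd6, whose genes lie end to end on opposite strands, ran from 3.62 in aged/doxo library 4 to 6.51 in treated library 4.

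mt-Cytb, cytochrome b of complex III and the only mitochondrial gene of that complex, lay between 7499 and 12219 TPM (median 9488) in 11 libraries and at 25242 TPM in aged/doxo library 2. It held the steadiest share of the mitochondrial mRNA pool, 5.68% to 6.49% over all 12 libraries with the copies added.

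The complex IV genes encode the catalytic core of cytochrome c oxidase. mt-Co1, the subunit with the oxygen-reducing site, was at 15504, 11378, 12518 and 11989 TPM in young control libraries 1 to 4, 12533, 59681, 14039 and 17538 TPM in aged/doxo libraries 1 to 4 and 11725, 17476, 12098 and 11457 TPM in treated libraries 1 to 4. Aged/doxo library 2 was 4.06 times the mean of the other 3 aged/doxo libraries, and treated library 2 was the highest of its group. With Gm29216 added, mt-Co1 lay between 14779.8 and 21891 TPM in the other 11 libraries and at 59719 TPM in aged/doxo library 2. mt-Co2, the subunit that takes electrons from cytochrome c, was listed under its own name at 459, 639, 343 and 360.1 TPM in young control libraries 1 to 4, 566, 438, 651 and 127 TPM in aged/doxo libraries 1 to 4 and 307, 1168, 879.6 and 1029 TPM in treated libraries 1 to 4. Its values spread 9.19-fold over the 11 libraries besides aged/doxo library 2, the widest spread of any member. With Gm28661 added, mt-Co2 was at 23237, 15552, 16527 and 19894 TPM in young control libraries 1 to 4, 17605, 55171, 20377 and 21693 TPM in aged/doxo libraries 1 to 4 and 20274, 22020.0, 18498 and 15885 TPM in treated libraries 1 to 4. The spread of the sum over those 11 libraries was 1.49-fold, and the low value of 127 TPM in aged/doxo library 4 and the high value of 1168 TPM in treated library 2 became 21693 and 22020.0 TPM. mt-Co3 was at 2443, 767, 942 and 1445 TPM in young control libraries 1 to 4, 649, 5096, 1179.7 and 1819.6 TPM in aged/doxo libraries 1 to 4 and 1282, 1477, 1835 and 550.4 TPM in treated libraries 1 to 4. With Gm28437 added, mt-Co3 lay between 8785 and 20706 TPM in 11 libraries and at 40560.3 TPM in aged/doxo library 2. Young control library 1 was the highest of the other 11 libraries on both scales.

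Complex V has a pair of mitochondrially encoded subunits. mt-Atp8, a small subunit of the membrane part, had the highest listed TPM of the 15 members in every library except aged/doxo library 2, at 37646, 24380.2, 28329 and 24723 TPM in young control libraries 1 to 4, 35399, 51352, 41916 and 30219.6 TPM in aged/doxo libraries 1 to 4 and 28598, 38006, 37394 and 30146 TPM in treated libraries 1 to 4. Its excess in aged/doxo library 2 was the smallest among the members apart from mt-Co2, 1.43 times the mean of the other 3 aged/doxo libraries. mt-Atp6, which forms the proton channel of the membrane part, lay between 678 and 1882 TPM (median 1124) in 11 libraries and at 2357 TPM in aged/doxo library 2. With Gm10925 added, it lay between 7014 and 17938 TPM in those 11 libraries and at 30608 TPM in aged/doxo library 2. The listed ratio of mt-Atp8 to mt-Atp6 ran from 16.0 in aged/doxo library 4 to 49.9 in aged/doxo library 1, although both come from a shared bicistronic mRNA. With Gm10925 added to mt-Atp6, the ratio ran from 1.68 in aged/doxo library 2 to 3.48 in young control library 2. Of the 204 bases of mt-Atp8, 43 are the shared bases printed above. Gm10925 matches mt-Atp6 from base 1 with 0 differences, so it holds these 43 bases as well. How reads there were divided was not tested. The stretch of chromosome 1 between Gm10925 and Gm28661 holds no annotated copy and was not compared with mt-Atp8.

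The rRNAs of the small and large mitochondrial ribosomal subunits were below every mRNA in group means of TPM once the copies were added. mt-Rnr1 was at 1097, 439, 612 and 594 TPM in young control libraries 1 to 4, 406, 2243, 474 and 721 TPM in aged/doxo libraries 1 to 4 and 529, 451, 616 and 274 TPM in treated libraries 1 to 4. mt-Rnr2 was at 623, 216, 308 and 341 TPM in young control libraries 1 to 4, 241, 944, 252 and 423 TPM in aged/doxo libraries 1 to 4 and 307, 267, 403 and 159.7 TPM in treated libraries 1 to 4. Aged/doxo library 2 and young control library 1 were the highest for both genes, and treated library 4 the lowest. The ratio of mt-Rnr1 to mt-Rnr2 stayed between 1.53 and 2.37. The 13 mRNAs summed to between 71.3 times (young control library 1) and 200.2 times (treated library 4) the 2 rRNAs, without copies. The sources used here do not say whether poly(A) selection or rRNA removal was used, and the part of that step in the rRNA values was not tested.

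The mitochondrial mRNA pool was then described as shares, which do not move with its total. With the copies added, complex I genes held 31.2% to 36.6% of the pool, complex III 5.68% to 6.49%, complex IV 30.6% to 38.4% and complex V 20.3% to 31.4%. The highest complex IV share and the lowest complex V share both belonged to aged/doxo library 2. mt-Atp8 held 12.7% of the pool in that library and 16.0% to 23.3% in the other 11. mt-Co1 held 14.8% there and 8.80% to 12.5% elsewhere. mt-Nd2 held 4.48, 4.86, 4.45 and 4.44% of the pool in young control libraries 1 to 4 and 4.26, 4.36, 3.81 and 3.83% in treated libraries 1 to 4. These ranges did not overlap, and mt-Nd2 was the only 1 of the 13 mRNAs for which this held in any of the 3 comparisons. Of all 10883 genes passing the filter and set against the mitochondrial mRNA total, 0.551% were lower and 0.68% higher without overlap in treated than in young control libraries. The same percentages were 0.0368% higher and 0.616% lower in aged/doxo against young control, and 2.32% higher and 0.0643% lower in treated against aged/doxo. Nearly all of these genes are not part of that total, so the percentages differ in kind from shares within the pool. The pool share of mt-Nd2 was 4.13, 5.003, 3.66 and 4.27% in aged/doxo libraries 1 to 4, overlapping both groups. As listed, without the copies, mt-Nd2 held 6.82% to 7.44% in young control and 6.09% to 6.996% in treated libraries, which overlapped, so the separation is seen only with the copies added.

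**Figure D4:**
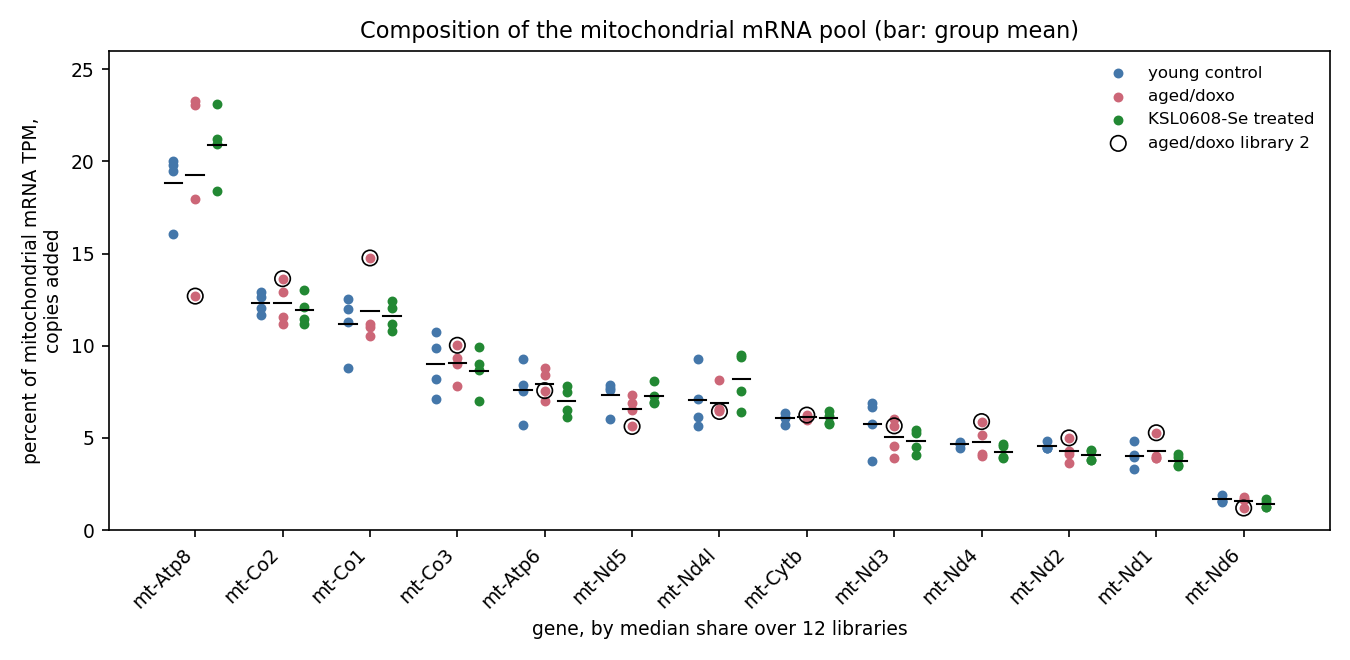
Each of the 13 mRNAs as a percent of the summed mitochondrial mRNA TPM with copies added (y axis), a point for each of the 12 libraries coloured by group, black bars for group means and a ring around aged/doxo library 2. mt-Atp8 falls to 12.7% and mt-Co1 reaches 14.8% in the ringed library, and most other shares overlap closely between groups.

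No mitochondrially encoded gene passed the test between aged/doxo and young control livers, while 14 of the 15 tested had a fold change above 0. Of 15 members tested with limma on log2(TPM + 1), 0 passed an adjusted p of 0.05 (Benjamini-Hochberg over 10883 genes), where 0.00919% of all genes tested (1 gene) did. At an unadjusted p under 0.05 there was 1 member, mt-Atp8, against 1.98% of all genes. Its log2 fold change was 0.46 ± 0.19 (SE; limma, adjusted p = 1), from 28770 ± 6182 TPM in young control to 39721 ± 9111 TPM in aged/doxo (SD, n = 4 each), and the groups overlapped. On the log2(TPM + 1) scale, 12 of 13 mRNAs had a fold change above 0, with a median of 0.37 where the median over all genes was -0.08. The largest was mt-Co1 at 0.70 ± 0.39 (SE; limma, adjusted p = 1) and the lowest, as listed, mt-Co2 at -0.20 ± 0.51 (SE; limma, adjusted p = 1). mt-Nd6 had 0.37 ± 0.23 (SE; limma, adjusted p = 1). The rRNAs had 0.21 ± 0.48 for mt-Rnr1 and 0.20 ± 0.45 for mt-Rnr2 (SE; limma, adjusted p = 1). For 0 of the 15 members did the groups fail to overlap, against 0.689% of all genes higher and 0.312% lower without overlap. Without aged/doxo library 2, 9 of the 15 members were above 0, the median of the 13 mRNAs was 0.07 beside 0.10 for all genes, and mt-Co1 was at 0.19, mt-Nd6 at 0.18, mt-Rnr1 at -0.32 and mt-Rnr2 at -0.22. mt-Atp8 was then at 0.33 ± 0.18 (SE; limma, adjusted p = 1). With library quality weights estimated from the data, mt-Atp8 alone among the members passed, with limma's adjusted p = 0.0471, in a fit where 74 of 10883 genes passed against 1 with equal weights. With copies added, all 15 members were above 0 and mt-Co2 was at 0.46. In the same comparison the erythroid markers had a median of 0.82, with 4 of the 5 tested higher at an unadjusted p under 0.05 and 0 past an adjusted p of 0.05, and, without aged/doxo library 2, a median of 0.77 with 3 of 5. The 3 tested of 7 nuclear-retained RNAs had a median of 0.66, and 0.27 without it. Their part in the mitochondrial values was not tested.

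The treated livers were then set against the aged/doxo livers, whose description shares the doxo term. Again 0 of 15 members passed an adjusted p of 0.05 in limma, where 0.00919% of all genes did (1 gene). At an unadjusted p under 0.05 there was 1 member, mt-Nd6, against 4.77% of all genes. Its log2 fold change was -0.52 ± 0.23 (SE; limma, adjusted p = 0.427), from 3335 ± 1029 TPM in aged/doxo to 2290.1 ± 479 TPM in treated livers (SD, n = 4 each), with overlapping groups. Only mt-Co2 of the 15 members was above 0, at 0.99 ± 0.51 (SE; limma, adjusted p = 0.427), from 445 ± 230 to 846 ± 378 TPM (SD, n = 4 each). With Gm28661 added to it, mt-Co2 was at -0.43 and 0 of 15 members were above 0. The lowest as listed was mt-Nd3 at -0.84 ± 0.50 (SE; limma, adjusted p = 0.427). With all copies added, mt-Nd3 was at -0.43 and mt-Atp6, at -0.57, was the lowest mRNA. mt-Rnr1 had -0.74 ± 0.48 (SE; limma, adjusted p = 0.427) and mt-Rnr2 -0.55 ± 0.45 (SE; limma, adjusted p = 0.454). The median of the 13 mRNAs was -0.47 beside 0.30 for all genes. The groups overlapped for all 15 members, while 2.77% of all genes were higher and 0.358% lower without overlap. Without aged/doxo library 2, the median of the 13 mRNAs was -0.09 beside 0.13 for all genes, and 4 of 15 members were above 0. The value of mt-Nd6 without that library was -0.33 and that of mt-Nd3 was -0.32. Scaling by medians of ratios moved the median of all genes from 0.30 to 0.03 and put the mRNAs between -1.17 and 0.66, with the same single member above 0. The erythroid markers had a median of -0.73 here, with 4 of 5 lower at an unadjusted p under 0.05 and 0 past an adjusted p of 0.05. Without that library the median was again -0.73, with 2 of 5. The nuclear-retained RNAs had a median of -0.91, and -0.48 without it. Their part was not tested.

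**Figure D5:**
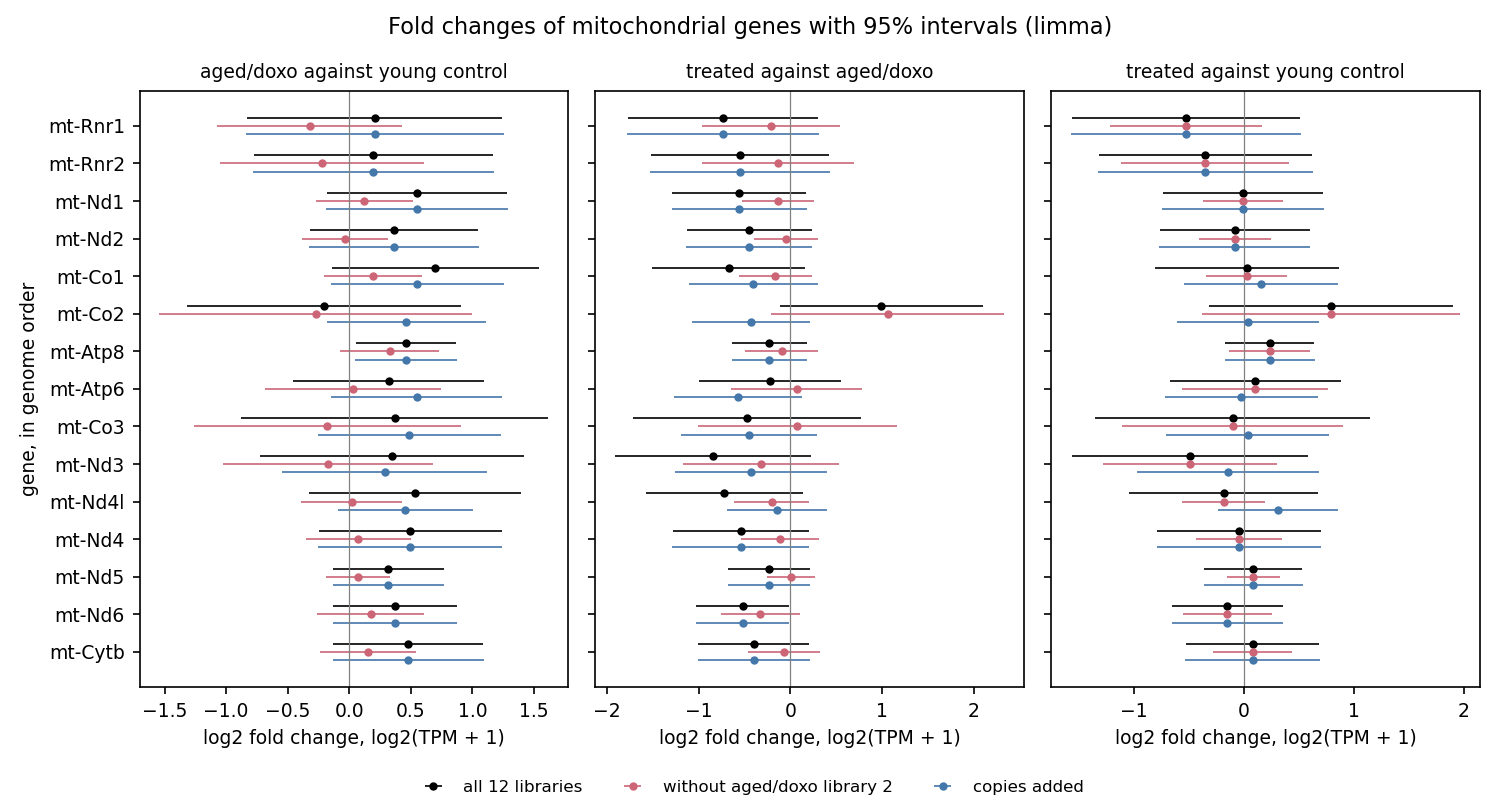
log2 fold change on log2(TPM + 1) with its 95% interval from limma (x axis) for the 13 mRNAs and 2 rRNAs in genome order (y axis), in a panel for each of the 3 comparisons, for all 12 libraries (black), without aged/doxo library 2 (red) and with copies added (blue). Removing that library brings most members of the left and middle panels nearer to 0, and adding the copies moves mt-Co2 from 0.99 to -0.43 in the middle panel.

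Treated livers were also set against young control livers. The comparison shares its libraries with the other comparisons, so the 3 sets of values are not independent. In limma 0 of 15 members passed an adjusted p of 0.05 and 0 an unadjusted p under 0.05, where 0.0276% of all genes (3 genes) and 3.4% of them did. Fold changes were above 0 for 6 of 15 members, with a median of -0.01 for the 13 mRNAs beside 0.23 for all genes. The highest was mt-Co2 at 0.79 ± 0.51 (SE; limma, adjusted p = 0.734), from 450.2 ± 136 to 846 ± 378 TPM (SD, n = 4 each), and with Gm28661 added it was at 0.04. The lowest mRNA was mt-Nd3 at -0.49 ± 0.50 (SE; limma, adjusted p = 0.734), and with Gm28438 added it was at -0.14. mt-Rnr1 had -0.53 ± 0.48 (SE; limma, adjusted p = 0.734), mt-Rnr2 -0.35 ± 0.45 (SE; limma, adjusted p = 0.744) and mt-Nd6 -0.15 ± 0.23 (SE; limma, adjusted p = 0.772). All 15 members overlapped between these groups, against 3.66% of all genes higher and 0.358% lower without overlap. The direction of the small changes depended on the scaling, with 1 of 15 members above 0 under median-of-ratios scaling and 8 under quantile normalization. It also depended on single libraries, with 3 of 15 above 0 without young control library 2. Without young control library 1, or without treated library 4, 10 of 15 were above 0. With a library left out, the median of the 13 mRNAs ran from -0.12 to 0.12.

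The chromosome 1 copies were tested in the same fit, and 0 of the 6 above the filter passed an adjusted p of 0.05 in any comparison. Gm29216, the copy of part of mt-Co1, was at 1489, 3402, 3462 and 7313 TPM in young control libraries 1 to 4, 4474, 38.0, 5965 and 127 TPM in aged/doxo libraries 1 to 4 and 5636, 4415, 5425 and 6176 TPM in treated libraries 1 to 4. Aged/doxo libraries 2 and 4 were far below the others. Its log2 fold change was -2.48 ± 1.30 in aged/doxo against young control (SE; limma, adjusted p = 1) and 3.15 ± 1.30 in treated against aged/doxo (SE; limma, adjusted p = 0.427). Without aged/doxo library 2 these were -1.16 ± 1.07 and 1.84 ± 1.07 (SE; limma, adjusted p = 1 and 0.923). Gm10222, the copy of mt-Nd4l, was at 7914, 8481, 6836 and 6547 TPM in young control libraries 1 to 4, 9448, 13280.0, 9462 and 6988 TPM in aged/doxo libraries 1 to 4 and 7664, 13566, 9339 and 11306 TPM in treated libraries 1 to 4. It had a log2 fold change of 0.47 ± 0.21 in treated against young control (SE; limma, adjusted p = 0.734), while mt-Nd4l itself had -0.19 and their sum 0.31. The pair sum lay between the values of gene and copy.

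Nuclear genes that act on the mitochondrial genome and its products were read from the same fit as lists, and 0 of their members passed an adjusted p of 0.05 in any of the 3 comparisons in limma. The lists were described by counts and medians and were not tested as sets. In the order aged/doxo against young control, treated against aged/doxo and treated against young control, the medians over all genes were -0.08, 0.30 and 0.23, and 1.98%, 4.77% and 3.4% of all genes had an unadjusted p under 0.05. Of the genes that copy and transcribe mitochondrial DNA, 21 of 23 were tested, with medians of -0.14, 0.20 and 0.11 and 0, 1 and 0 genes under an unadjusted p of 0.05. That gene was Lig3, a DNA ligase of nucleus and mitochondria, at 0.75 ± 0.35 in treated against aged/doxo (SE; limma, adjusted p = 0.427). The 35 RNA processing and decay genes had medians of -0.16, 0.36 and 0.16 and 0, 2 and 0 genes under an unadjusted p of 0.05. In treated against aged/doxo, the pseudouridine synthase genes Rpusd3 and Trub2 had 0.88 ± 0.34 and 0.97 ± 0.40 (SE; limma, adjusted p = 0.427 for both). The 32 tested translation factors and tRNA synthetases had medians of -0.14, 0.41 and 0.28 and 1 gene under an unadjusted p of 0.05 in each comparison. Mettl17, a mitochondrial ribosome assembly factor, had 0.45 ± 0.19 in aged/doxo against young control (SE; limma, adjusted p = 1). The 84 tested mitochondrial ribosomal protein genes had medians of -0.10, 0.20 and 0.11, with 0 members under an unadjusted p of 0.05 in any comparison. Without aged/doxo library 2, a setting chosen for these lists and for the copies after the data were seen, the medians of aged/doxo against young control and treated against aged/doxo were 0.10 and 0.13 for all genes. The same medians were 0.06 and 0.06 for the genes of mitochondrial DNA, 0.07 and 0.17 for RNA processing and decay, 0.11 and 0.14 for translation and 0.14 and -0.03 for ribosomal proteins. Lig3, Rpusd3 and Trub2 were then at 0.48, 0.57 and 0.71 in treated against aged/doxo, and all 3 lost the unadjusted p under 0.05. Of all 10883 genes, 154 were under it in that setting, against 519 with every library kept.

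The nuclear-encoded partners of the mitochondrial subunits also had 0 genes past the adjusted threshold in limma. The 37 complex I genes had medians of 0.04, -0.01 and 0.03 in the same order of comparisons, the 9 complex III genes -0.08, 0.24 and 0.09, the 11 complex IV genes 0.01, 0.10 and 0.13 and the 16 tested complex V genes -0.10, 0.16 and 0.06. In these 4 lists a single gene had an unadjusted p under 0.05, Atp5g2, which encodes a copy of the rotor ring subunit. It had -0.59 ± 0.20 in aged/doxo against young control and -0.60 ± 0.20 in treated against young control (SE; limma, adjusted p = 1 and 0.734). Over the same complexes the mitochondrial mRNAs had medians of 0.37, -0.47 and -0.01. Without aged/doxo library 2, the medians of the first and the second comparison were 0.07 and -0.09 for the mitochondrial mRNAs, 0.11 and -0.10 for complex I, 0.12 and 0.04 for complex III, 0.12 and -0.06 for complex IV and 0.11 and -0.01 for complex V. The 8 tested biogenesis regulators had medians of -0.08, 0.42 and 0.25, with 0 genes under an unadjusted p of 0.05 in any comparison. Nrf1, a regulator of respiratory genes, had 0.53 ± 0.28 in treated against aged/doxo (SE; limma, adjusted p = 0.427), and 0.35 without library 2. The 15 tested mitochondrial stress genes had medians of -0.17, 0.38 and 0.32 and 1, 0 and 1 genes under an unadjusted p of 0.05. Without library 2, the medians of the first and the second comparison were 0.06 and 0.25 for the biogenesis regulators and 0.17 and 0.18 for the stress genes. Gdf15, a circulating stress hormone, had 0.65 ± 0.29 in aged/doxo and 1.03 ± 0.29 in treated, each against the same young control libraries (SE; limma, adjusted p = 1 and 0.734). Without library 2, 0 of the 15 stress genes had an unadjusted p under 0.05 in aged/doxo against young control. In treated against young control the count was then 1.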

How the data were processed

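Liver RNA of 12 mouse libraries was measured, 4 in each of 3 groups taken from the labels. The authors deposited a table of TPM per gene, per the file headers, with gene length and name. The submitters' processing notes name fastp, HISAT and RSEM, without versions. For aligner settings, genome build, annotation, strand and library selection: not given in the sources used here. TPM is fixed in total and gives no depth, so the precision rests on the 4 libraries per group. Gene positions and sequences came from GENCODE M21 (GRCm38), whose lengths equalled those of all 37 members, and 55141 of 55487 Ensembl identifiers were found there.

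Genes with a mean of at least 1 TPM over the 12 libraries (10883) were fitted with limma 3.58.1 (trend, group as the only term, R 4.3.3) on log2(TPM + 1), two-sided, with Benjamini-Hochberg adjustment over all of them. Copies were aligned to their mitochondrial genes, and pair sums and shares were computed per library with Python 3.11.15. The script was tested on simulated data. The alternatives were another pseudocount (0.1 or 0.01), no filter or at least 5 TPM, median-of-ratios, quantile and nuclear totals, a total without the 50 most abundant genes, a replicate block, robust variance, library weights, the compared groups alone and each library left out. Adding copies and nuclear totals without copies were chosen after the data were seen. Every mRNA and rRNA is named with its level, and fold changes are given for the highest and lowest mRNA per comparison, both rRNAs, mt-Nd6 and members past the threshold, beside mt-Atp8 and mt-Nd4l, picked after their values were seen, and up to 3 list members of smallest p. tRNAs under 1 TPM are counted. The members and lists were chosen with earlier results of these data known.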

Additional observations from a re-analysis of the deposited data

Results flagged for a closer look

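Within each group of 4 libraries, the highest or lowest library was picked out when its gap to the nearest other, divided by the whole range, exceeded Dixon's critical value for 4 samples. Chance does this in about 1 in 20 groups, and 19 of the 111 groups examined were picked out, most of them through aged/doxo library 2, which is a single library counted many times.

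In aged/doxo library 2 the mitochondrial share of TPM was 27.6%. It stood above its group for mt-Nd1 (21364 TPM), mt-Nd2 (20240.0 TPM), mt-Co1 (59681 TPM), mt-Nd4l (12759 TPM), mt-Nd4 (23815 TPM), mt-Nd5 (22753 TPM) and mt-Cytb (25242 TPM), and for the copies Gm28437 (35465 TPM) and Gm28661 (54734 TPM). With the copies added, mt-Nd1 made up 5.28% and mt-Co1 14.8% of its mitochondrial mRNA, both above the rest of the group.

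Elsewhere, treated library 2 was high for mt-Co1 (17476 TPM) and treated library 4 low for Gm10925 (7754 TPM). As shares of mitochondrial mRNA with copies added, young control library 2 was high for mt-Nd2 (4.86%), young control library 4 was low for mt-Atp8 (16.0%) and high for mt-Nd6 (1.91%), aged/doxo library 1 was high for mt-Nd4l (8.12%) and young control library 1 was low for mt-Nd5 (6.04%).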

How the results depend on the processing

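Under the 27 alternatives, 0 members passed in any comparison, except 1 (mt-Atp8, aged/doxo against young control) with library quality weights. Over all tested genes, aged/doxo against young control called 1 gene, 2 with a pseudocount of 0.1 or 0.01, quantile normalization or nuclear totals without copies, 3 with median-of-ratios scaling or without the 50 most abundant and mitochondrial genes, 74 with weights, 0 with no filter (all genes above 0 in a library), the compared groups alone or the replicate block, and 0 to 2 with a library left out. Treated against aged/doxo called 1, 0 with a pseudocount of 0.01, no filter, median-of-ratios, quantile normalization or with aged/doxo library 2 and young control library 1 both left out, 77 with weights, 2 with the groups alone, 0 with the replicate block and 0 to 1 with a library left out. Treated against young control called 3, 5 with either nuclear total or without the 50 most abundant genes, 29 with weights, 2 with a mean of at least 5 TPM, median-of-ratios or quantile normalization, 4 with both those libraries left out, 1 with no filter, the groups alone or the replicate block, and 1 to 5 with a library left out. Settings not named for a comparison gave its count unchanged. Same-numbered libraries correlated between -0.58 and 0.39 in their deviations and 4 of 24 matched their own number best. The labels do not say whether libraries were paired, and these values cannot settle it. Signs turned in aged/doxo against young control for mt-Co2 (0.60 with weights, 0.46 with copies added, -0.46 to 0.32 with a library left out), mt-Rnr1 (-0.29 with weights, -0.067 without both libraries named above, -0.32 to 0.50 with a library left out) and mt-Rnr2 (-0.23 with weights, -0.22 to 0.48 with a library left out, including -0.03 without young control library 2), and in treated against aged/doxo for mt-Rnr2 (0.038 with weights) and mt-Co2 (-0.43 with copies added). Without the major urinary protein genes, the mitochondrial share of TPM was 12.3% in young control and 11.5% in treated livers. With all genes in the total it was 9.82% and 10.1%, in the opposite order. With copies it was 15.4% and 16.1%. With copies added, mt-Atp8 made up 18.8%, 19.2% and 20.9% of mitochondrial mRNA in young control, aged/doxo and treated livers, mt-Co2 12.3%, 12.3% and 11.9%, and mt-Co1 11.2% in young control and 11.6% in treated livers. The shifts with copies follow from the sums. The cause of the other shifts was not tested. Depth is unknown.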
